A study of Homo sapiens with 6 samples.

Results

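The genes described here are 31 targets of the tumour suppressor p53, taken by symbol from a list of named genes out of 23686 genes counted in each library. The list also holds MDM4, a binding inhibitor of p53 that belongs to the same circuit. All 31 were found under their current symbols, and all 31 met the condition of at least 10 reads in at least 3 libraries, so no member was lost to a filter on low counts. RNA was sequenced from HEK293, an established human embryonic kidney line whose cells here carried green fluorescent protein (GFP). In 3 samples GFP+ cells shared a culture for 10 h with a source of reactive oxygen species (ROS), HEK293 cells with DAAO given D-alanine at 25 µM, before sorting on GFP. DAAO usually stands for D-amino acid oxidase, an enzyme that makes hydrogen peroxide as it oxidises D-amino acids. The 3 controls were sorted GFP+ cells labelled as wild type, and all 6 samples were grown in high-glucose DMEM with serum. One treatment text is given for every sample, so whether D-alanine or enzyme-free partner cells were also given to the controls is not given in the sources used here. Sorted and partner cells come from the same line, so RNA of a partner cell that passed the sort cannot be told apart from that of a GFP+ cell by these genes.

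p53 is a transcription factor that is made continuously and destroyed almost as fast, because MDM2, itself a p53 target, marks it for the proteasome. DNA damage and other stresses free p53 from MDM2, and its targets then stop the cell cycle, repair DNA, adjust redox metabolism or lead to cell death. HEK293 was made with adenovirus DNA and carries the viral proteins E1A and E1B, which bind and restrain RB and p53, so p53 is present in this line while its output is held back. The viral genes are not analysed here.

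p53 binds DNA at a pair of similar decamers, the p53 half-sites, each with a core of the form CNNG. RefSeq promoter windows of 300 bases (GRCh38.p14, 250 before the transcript start and 50 from it on) were found for 25 of the 31 genes, in 40 windows. A perfect half-site lay in 7 of the 40 windows (17.5%) and in 6.63% of all 35116 windows. Since the half-site reads the same on both strands, a single search covers both. A pair of perfect half-sites at most 13 bases apart lay in 1 of the 40 windows (2.5%), that of DDB2, with a spacer of 1 base, and in 0.0285% of all windows. A looser search, chosen after the stricter one had been run, took abutting pairs with every core letter kept and at most 2 other mismatches. It matched 5 of the 40 windows (12.5%) against 0.285% of all windows, or 4 of the 25 genes (16%) against 0.359% of all genes. These genes were MDM2, FAS, DDB2 and AEN. The perfect pair of DDB2 and the looser matches of the other 3 genes are shown so that the letters p53 is known to read can be compared, with the core C and G of each half-site in capitals:
MDM2: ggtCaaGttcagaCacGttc
FAS: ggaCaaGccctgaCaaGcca
DDB2: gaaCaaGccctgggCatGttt
AEN: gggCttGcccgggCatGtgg
They lie on the plus strand at chr12:68808923-68808942 (MDM2), chr10:88991309-88991328 (FAS), chr11:47214979-47214999 (DDB2) and chr15:88621306-88621325 (AEN). The MDM2 match was counted in more than 1 window, since it starts 101 bases before 1 of the gene's 4 RefSeq starts. It also starts 94 bases before another start, in the promoter inside the gene that p53 is known to use. The 250 bases before that start, at chr12:68808767-68809016, are printed with the match in capitals because MDM2 was the member whose level passed the test:
MDM2 promoter: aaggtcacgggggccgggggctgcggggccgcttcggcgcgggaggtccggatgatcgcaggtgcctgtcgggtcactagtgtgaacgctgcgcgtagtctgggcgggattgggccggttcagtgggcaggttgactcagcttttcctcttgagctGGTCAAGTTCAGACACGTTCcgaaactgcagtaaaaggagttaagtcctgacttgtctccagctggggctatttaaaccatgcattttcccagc
The CDKN1A window held no match, which says only that these letters are not in it. A match is a description of the sequence, and binding was not measured.

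Gene-assigned reads numbered 19091085 to 36250314 per library, and the members had between 12 and 13316 reads each. Levels are given as CPM, reads scaled to library size with trimmed means of M-values (TMM), and they are compared within a gene only, since they are not divided by gene length. All 9 markers of the HEK293 line, among them PAX2, LHX1 and KRT18, had at least 10 reads in every library, with a summed level of 2163 to 2373 CPM in co-culture, beside 1803 to 1876 CPM in the controls. Of 10 markers of other cell types, 8 (PTPRC, PECAM1, CDH5, ALB, HBB, LYZ, MYH7 and CD3E) never had more than 5 reads, while the collagen genes COL1A1 and COL3A1 were detected in every library, and the summed level of the 10 was 41.8 to 47.7 CPM in co-culture, beside 34.8 to 49.7 CPM in the controls. The part of these levels in the results was not tested. The libraries also differ by a technical measure. Reads on the opposite strand of a gene had a median share of 0.124% and 0.211% in co-culture libraries 2 and 3, and of 1.57% to 1.75% in the other 4. The class with few such reads held co-culture samples only, so once this class enters the model co-culture library 1 alone is compared with the 3 controls.

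MDM2 was the 1 member of 31 that passed the test, and it was higher beside ROS-producing cells. Over all 14582 tested genes 4.83% passed an adjusted p of 0.05 in edgeR's quasi-likelihood test, 2.66% higher and 2.17% lower, so 1 of 31 is near the background. The fitted log2 fold change was above 0 in 23 members and below 0 in 8, with a median of 0.12, while over all tested genes the median was 0.00 and 49.6% of genes lay above 0. At an unadjusted p under 0.05 there were 10 members (8 higher and 2 lower), against 23.2% of all genes (11.7% higher and 11.5% lower). The CPM of the groups did not overlap for 11 members, 9 higher and 2 lower in co-culture, against 29.3% of all genes (14.3% and 15%). In bulk RNA a change in the share of cells that express a gene and a change per cell cannot be told apart.

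**Figure D1:**
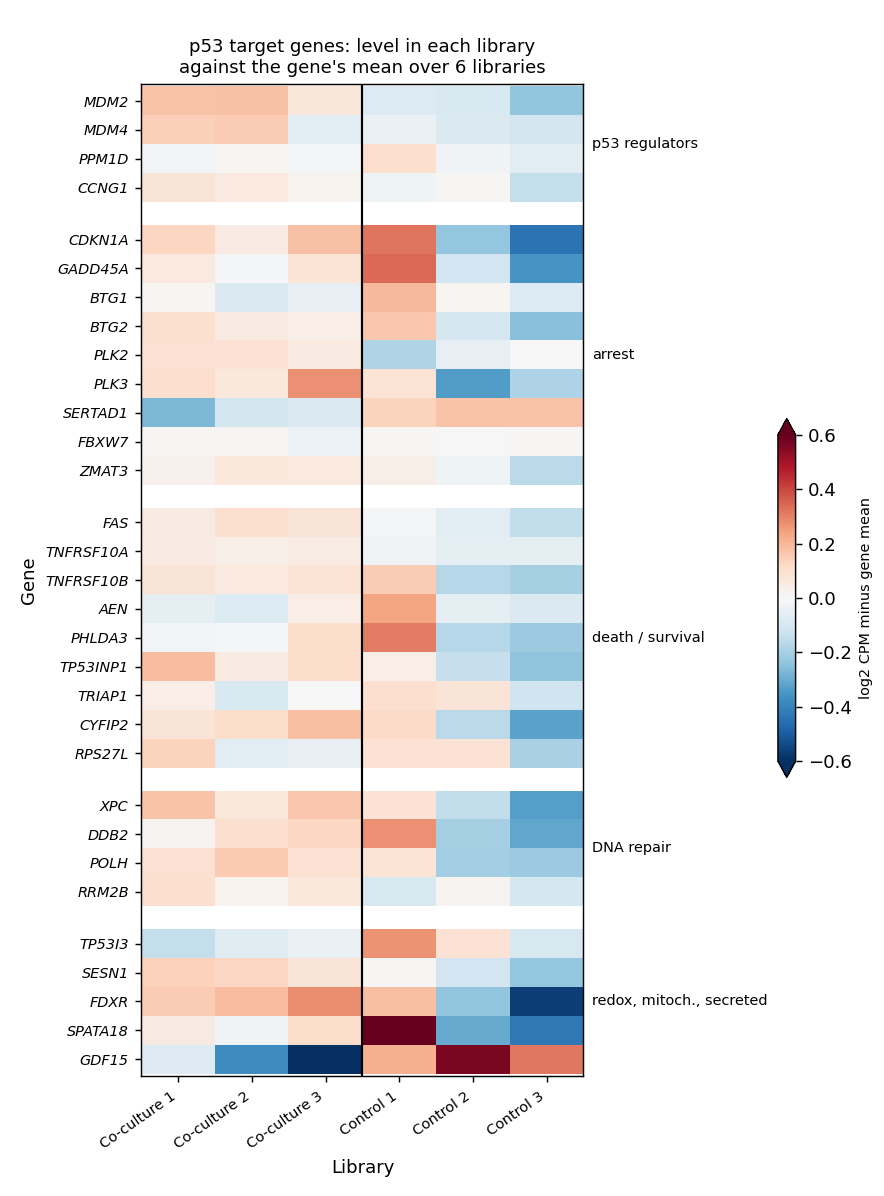
Level of each of the 31 genes (rows, grouped by role) in each of the 6 libraries (columns) as log2 CPM minus the gene's mean over the 6 libraries, with colour limits at ±0.6. The co-culture columns resemble each other, control 1 is red for CDKN1A, GADD45A, PHLDA3, DDB2 and SPATA18, and control 3 is blue in most rows.

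The first group holds the genes that restrain p53. MDM2, the ubiquitin ligase that removes p53, stood at 384, 385 and 358 CPM in co-culture libraries 1, 2 and 3 and at 322, 321 and 290.3 CPM in controls 1, 2 and 3. Every co-culture library lay above every control. The fold change was 1.21 (log2 0.27, SE 0.07, edgeR adjusted p 0.0426). With the strand class in the model, where 0.199% of all genes passed, the log2 fold change was 0.31 with an edgeR adjusted p of 0.286, and the call also ended when any library other than control 1 was left out (log2 fold changes from 0.225 to 0.31, edgeR adjusted p from 0.0658 to 0.209). MDM2 passed in 6 of 15 alternative settings, and it missed with total counts and with unstranded counts (edgeR adjusted p 0.0578 and 0.0551).

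MDM4, the relative of MDM2 that binds p53 and masks its activation domain, was at 107, 107 and 92.6 CPM in co-culture and at 94.1, 91.1 and 89.7 CPM in the controls. Co-culture libraries 1 and 2 were high, and library 3 lay among the controls. Its log2 fold change of 0.16 (95% interval 0.01 to 0.31) did not pass (edgeR adjusted p 0.201). PPM1D, the phosphatase WIP1 that switches damage signalling off, was at 67.2, 68.4 and 67.6 CPM beside 72.7, 66.8 and 64.8 CPM in the controls. The co-culture values lay inside the control range, and the 95% interval of the log2 fold change ran from -0.15 to 0.13. CCNG1, cyclin G1, which brings a phosphatase to MDM2, had a log2 fold change of 0.10 with groups that did not overlap (372 to 386 against 332 to 368 CPM) and did not pass (edgeR adjusted p 0.345). Of these 4 genes, 1 passed, against 4.83% of all genes, and 3 had a fitted value above 0, against 49.6%.

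In the group of cell cycle and growth arrest, CDKN1A comes first and encodes the cyclin-dependent kinase inhibitor p21. Its level was 196, 186 and 203 CPM in co-culture and 224, 153 and 132 CPM in the controls. Control 1 was the highest of the 6 libraries and controls 2 and 3 were the lowest, so the groups overlapped. The log2 fold change of 0.20 had a 95% interval from -0.23 to 0.64. GADD45A, a stress gene of the G2 checkpoint, followed the same order, with 48.1, 45.7 and 48.7 CPM in co-culture and 58.3, 42.6 and 36.1 CPM in the controls. BTG2, an antiproliferative partner of the CCR4-NOT deadenylase, was at 108, 105 and 104 CPM beside 113, 94.3 and 85.2 CPM. In all of these the control libraries were further apart than the co-culture libraries.

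PLK3, a polo-like kinase of the stress response, was at 7.21, 7.03 and 8.13 CPM in co-culture and 7.13, 5.32 and 5.91 CPM in the controls. Co-culture library 2 lay below control 1, and the log2 fold change of 0.29 did not pass (edgeR adjusted p 0.268). SERTAD1, which binds CDK4 and promotes proliferation, stood out in the other direction, at 13.2, 14.7 and 14.9 CPM in co-culture and 17.4, 17.8 and 17.8 CPM in the controls. The groups did not overlap, but its log2 fold change of -0.31 (SE 0.09) missed the threshold with an edgeR adjusted p of 0.0732, and it reached 0.0498 when libraries were scaled by total counts, where 6.05% of all genes passed. The other 4 members of the group, BTG1, PLK2, FBXW7 and ZMAT3, had log2 fold changes from -0.09 to 0.15. FBXW7, the substrate receptor of a ubiquitin ligase for cyclin E, was the most even of them, with a mean of 21.5 ± 0.38 CPM in co-culture, beside 21.7 ± 0.05 CPM in the controls (SD, n = 3). None of the 9 genes of cell cycle and growth arrest passed. SERTAD1 was the 1 gene of the 9 with an unadjusted p under 0.05, against 23.2% of all genes.

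Among genes of cell death and survival, the death receptor genes had small differences. TNFRSF10B, the receptor DR5 for the ligand TRAIL, was at 211, 208 and 211 CPM in co-culture and at 222, 177 and 174 CPM in the controls. Its co-culture libraries were close together and lay between control 1 and the other controls. FAS, the receptor of FAS ligand, did not overlap between groups (28.9 to 29.7 against 25.1 to 27.6 CPM), nor did TNFRSF10A, the receptor DR4 (19.8 to 20.1 against 18.6 to 19.1 CPM). Neither passed, with values of 0.15 and 0.09 on the log2 scale (adjusted p in edgeR 0.237 and 0.535).

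TP53INP1, a nuclear protein that aids p53 and autophagy, was at 59.9, 54.5 and 56.6 CPM in co-culture and 54.2, 47.9 and 44.6 CPM in the controls. All co-culture values were above all controls, the nearest pair being co-culture library 2 and control 1, and the log2 fold change of 0.22 (95% interval 0.05 to 0.40) had an edgeR adjusted p of 0.130. CYFIP2, a component of the WAVE actin-regulating complex, was at 258, 263 and 277 CPM beside 264, 219 and 195 CPM, with an edgeR adjusted p of 0.177. PHLDA3, which opposes AKT at the membrane, was at 27.7, 27.9 and 30.2 CPM beside 34.7, 24.9 and 24.1 CPM. Here control 1 again lay above all co-culture libraries. The remaining 3 genes were AEN, a nuclease of apoptosis, TRIAP1, a mitochondrial lipid-transfer protein that opposes apoptosis, and RPS27L, a ribosomal protein relative. Their log2 fold changes were -0.07, -0.04 and 0.01. In the group 0 of the 9 genes passed, with 2 at an unadjusted p under 0.05, against 23.2% of all genes.

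The 4 genes of DNA repair and nucleotide supply all had fitted values above 0, from 0.12 to 0.26, against 49.6% of all genes above 0. In this group 0 of the 4 passed, against 4.83% of all genes, and 2 had an unadjusted p under 0.05, against 23.2%. XPC, which recognises helix-distorting lesions, was at 84.0, 77.9 and 83.5 CPM in co-culture and 79.1, 67.3 and 59.3 CPM in the controls. Only control 1 reached the co-culture range, and the log2 fold change of 0.26 (SE 0.09) had an edgeR adjusted p of 0.136. POLH, the polymerase that copies past ultraviolet damage, was at 67.9, 71.2 and 67.9 CPM beside 67.4, 55.3 and 54.8 CPM. Its groups did not overlap, by the small gap between control 1 and the lower co-culture libraries (log2 fold change 0.22, edgeR adjusted p 0.138). DDB2, the partner of XPC in damage recognition, was at 58.0, 61.5 and 62.6 CPM beside 69.4, 50.1 and 46.3 CPM. Control 1 was above and controls 2 and 3 were below all co-culture libraries. RRM2B, the p53-induced subunit of ribonucleotide reductase, had 78.1 to 82.7 CPM against 71.6 to 77.9 CPM, a log2 fold change of 0.12 (edgeR adjusted p 0.263).

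The last group holds 5 redox, mitochondrial and secreted genes, 3 with fitted values above 0 and 2 below, against 49.6% of all genes above 0. In this group 0 of the 5 passed, against 4.83% of all genes, and 3 had an unadjusted p under 0.05, against 23.2%. SESN1, a sestrin that restrains mTORC1 and is linked to peroxide defence, was at 87.1, 86.2 and 83.7 CPM in co-culture and 79.7, 73.1 and 67.6 CPM in the controls. The groups did not overlap, and the log2 fold change of 0.22 (SE 0.07) had an edgeR adjusted p of 0.0890. FDXR, the ferredoxin reductase that passes electrons from NADPH in mitochondria, was at 41.2, 42.1 and 45.0 CPM beside 42.0, 31.5 and 25.0 CPM. It had the largest positive log2 fold change of the 31 members, 0.39, with a wide 95% interval from 0.03 to 0.75 (edgeR adjusted p 0.186). TP53I3, the quinone oxidoreductase PIG3 that generates ROS, had 11.9 to 12.8 CPM in co-culture, beside 12.3 to 15.8 CPM in the controls (log2 fold change -0.17, edgeR adjusted p 0.390). SPATA18, which acts in mitochondrial quality control, ranged from 4.94 to 5.39 CPM in co-culture and from 3.72 to 7.58 CPM in the controls.

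GDF15, a secreted stress cytokine that p53 and the integrated stress response both induce, was barely detected. It had 14, 12 and 17 reads in co-culture and 17, 21 and 24 reads in the controls, or 0.701, 0.570 and 0.475 CPM beside 0.859, 1.10 and 0.921 CPM. The co-culture libraries were all lower, and the log2 fold change of -0.75 (95% interval -1.41 to -0.08) did not pass (edgeR adjusted p 0.169).

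**Figure D2:**
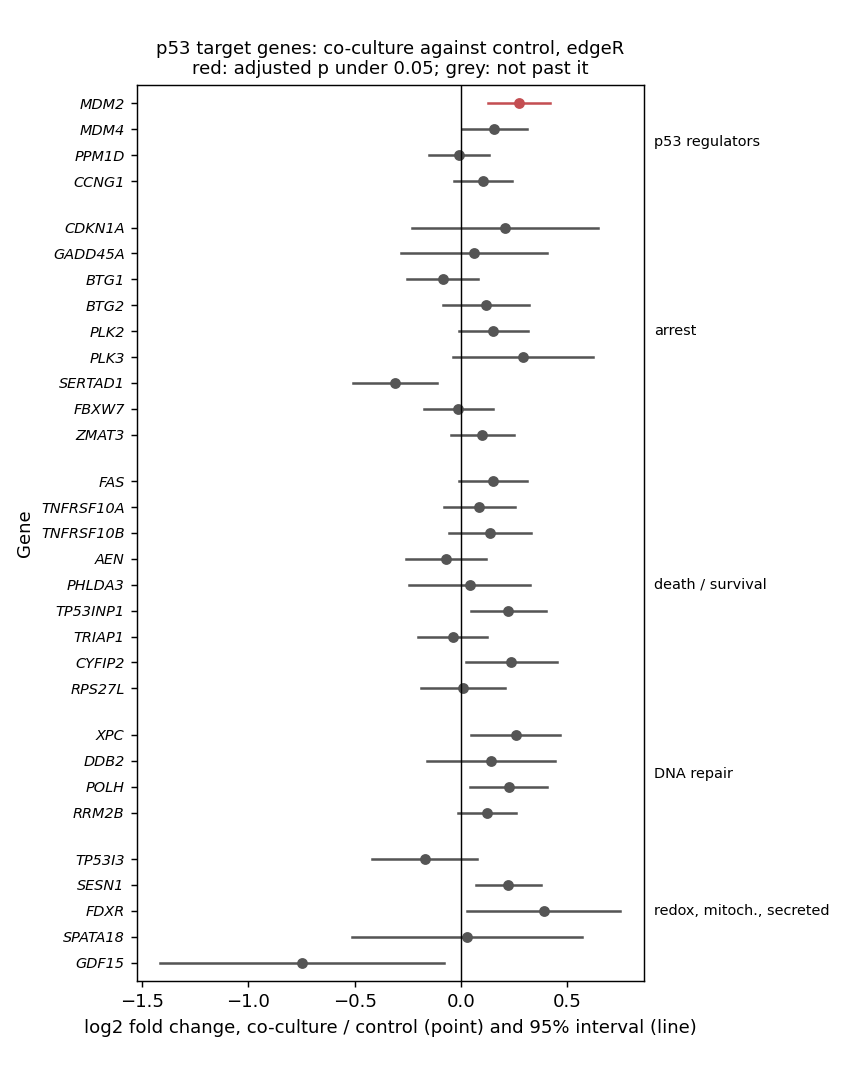
Fitted log2 fold change of co-culture over control (points) with its 95% interval before adjustment for multiple tests (lines) for the 31 genes, grouped by role. MDM2, in red at 0.27, is the gene with an adjusted p under 0.05, and the intervals of CDKN1A, SPATA18, FDXR and GDF15 are wide.

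The members were spread more widely among the controls than among the co-culture libraries. The SD of log2 CPM was larger among the controls than among the co-culture libraries for 27 of the 31 members, and for 68.8% of all genes with reads in every library. The median SD of the members was 0.16 in the controls and 0.05 in co-culture, beside 0.13 and 0.08 for all tested genes. For CDKN1A the SD was 0.39 in the controls and 0.06 in co-culture, and for TNFRSF10B it was 0.20 and 0.01. MDM4, SERTAD1, FBXW7 and GDF15 were the 4 members with the wider spread in co-culture.

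The spread among the controls had a common order. Control 3 was the lowest of the 6 libraries for 24 of the 31 members, against 19.04% of all tested genes, and control 1 was the highest for 12, against 24.5%. Relative to each gene's mean over the 6 libraries, the median member was 0.10 higher in control 1, -0.09 in control 2 and -0.19 in control 3 on the log2 scale. In co-culture libraries 1, 2 and 3 the same medians were 0.08, 0.05 and 0.06, and over all genes they were within 0.01 of 0 in every library. Counted by gene, 24 members were above their mean in control 1, 9 in control 2 and 3 in control 3. For the median member, control 1 thus lay with the co-culture libraries and above the other controls. The labels do not set control 1 apart, and the cause of this order was not tested.

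**Figure D3:**
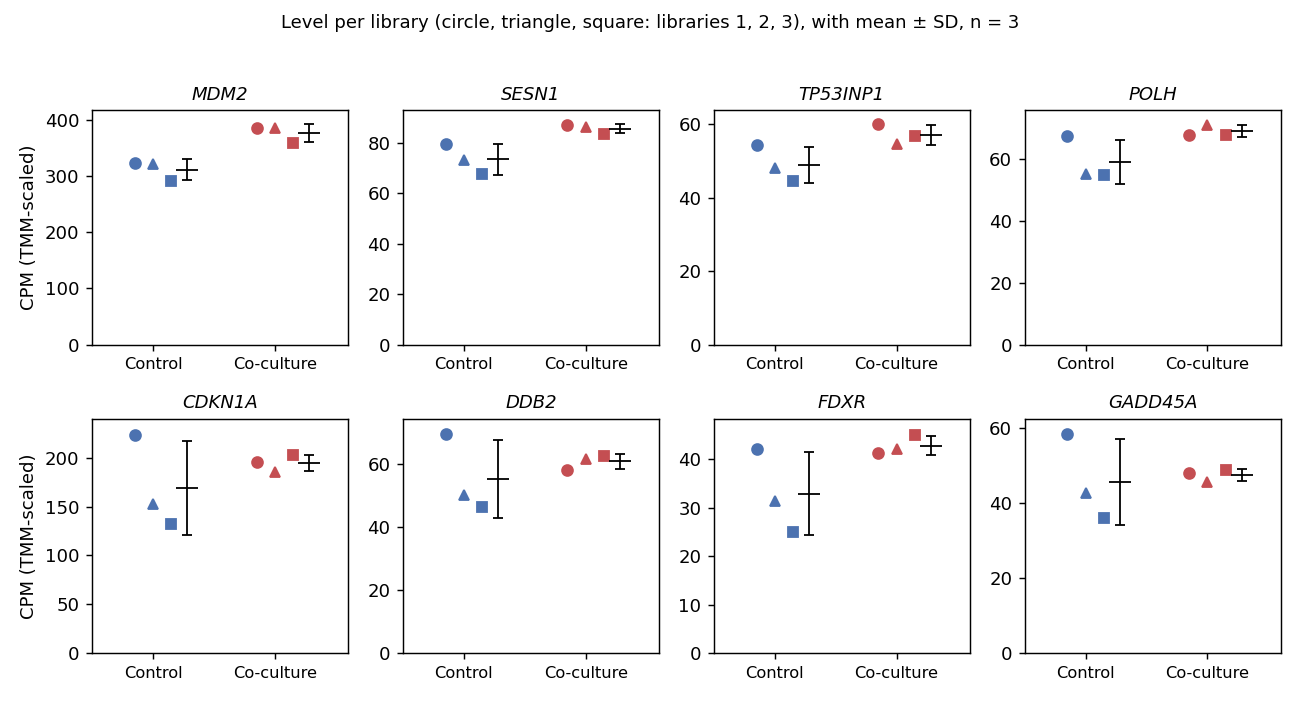
CPM of 8 genes in each library (circle, triangle and square for libraries 1, 2 and 3 of a group) with the group mean and SD (n = 3). For MDM2, SESN1, TP53INP1 and POLH no control reaches the co-culture values, while for CDKN1A, DDB2 and GADD45A control 1 lies above every co-culture library and controls 2 and 3 lie below them.

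Leaving out control 1 changed the count of members more than leaving out any other library. Without it 15 of the 31 members passed in edgeR, 14 higher and 1 lower, but so did 20.8% of all tested genes (10.6% higher and 10.3% lower), and the members' median log2 fold change was 0.18. The 14 were MDM2, CDKN1A, GADD45A, BTG2, PLK3, TNFRSF10B, PHLDA3, TP53INP1, CYFIP2, XPC, DDB2, POLH, SESN1 and FDXR, and SERTAD1 was the lower one. On the log2 scale CDKN1A then differed by 0.46 (SE 0.06, edgeR adjusted p 0.000133), FDXR by 0.61 (SE 0.09, adjusted p 0.000231) and DDB2 by 0.34 (SE 0.06, adjusted p 0.00147). Without control 3 the median was 0.05 and 0 of the 31 passed, against 5% of all genes, with CDKN1A at 0.05 and FDXR at 0.22. No member passed without co-culture library 1, 2 or 3 or without control 2, fits in which 0.831%, 0.503%, 2.18% and 0.44% of all genes passed. Leaving out a control is a check on a library that stands apart, and no label gives a reason to discard it. Control 1 was the highest control for CDKN1A, FDXR and DDB2, so leaving it out had to raise their fold changes. Their p-values in that fit are therefore not separate evidence of a difference.

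**Figure D4:**
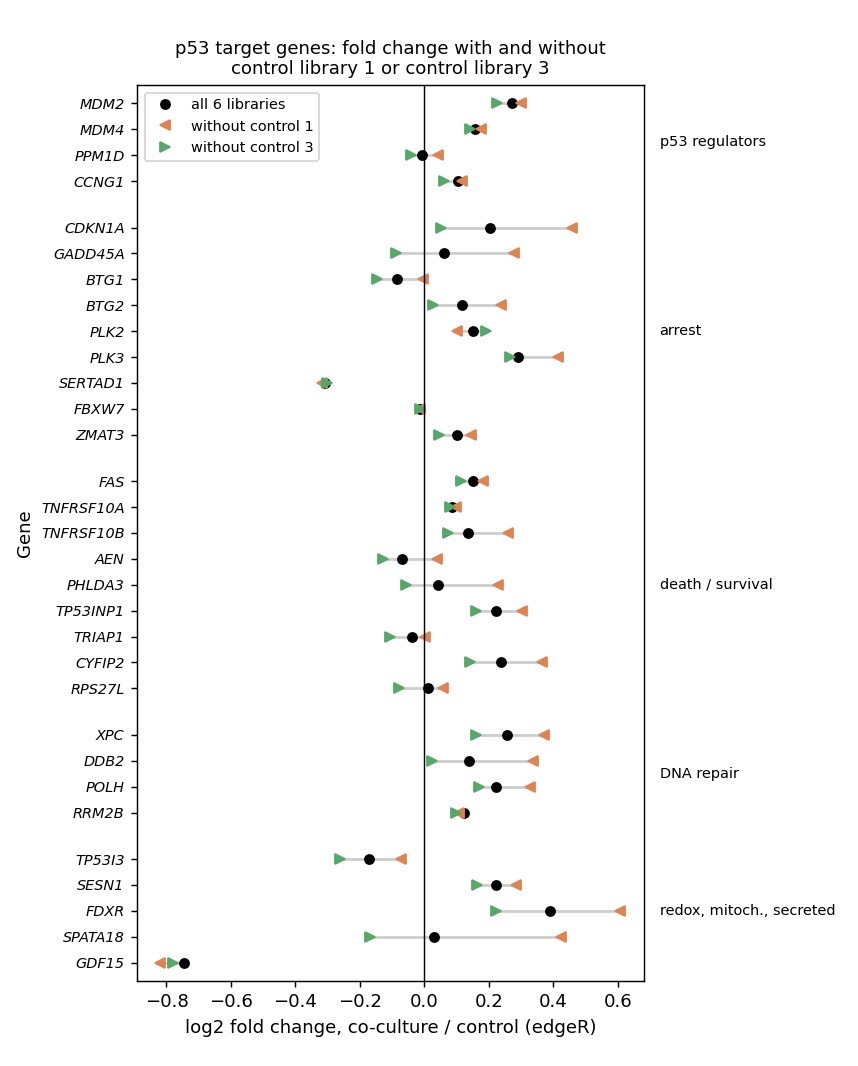
Log2 fold change of the 31 genes from all 6 libraries (circles), without control 1 (left-pointing triangles) and without control 3 (right-pointing triangles). Without control 1 most genes move to the right, with CDKN1A at 0.46, and without control 3 most move to the left, with CDKN1A at 0.05.

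The 4 genes with a looser paired match in their promoter window had values on both sides of 0. MDM2 had a log2 fold change of 0.27, FAS of 0.15, DDB2 of 0.14 and AEN of -0.07, and of these MDM2 alone passed. The 95% interval of AEN ran from -0.26 to 0.12.

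The other genes of the pathway were taken from lists written from general knowledge, but with earlier results of these data known. Of 44 further p53 targets, 6 were higher and 0 lower at an edgeR adjusted p under 0.05, beside the 2.66% and 2.17% of all genes, and the median log2 fold change was 0.12. TNFRSF10D, a decoy receptor for TRAIL, was at 65.8, 67.1 and 70.0 CPM in co-culture and 51.4, 49.2 and 49.0 CPM in the controls, and rose by 0.44 on the log2 scale (SE 0.06, edgeR adjusted p 0.00447). The groups did not overlap. PERP, a membrane protein of desmosomes and p53-dependent death, rose by 0.38 (SE 0.08, edgeR adjusted p 0.0246), with 289.6, 271 and 285 CPM beside 192, 223 and 237 CPM. STEAP3, an iron reductase of endosomes, rose by 0.34 (SE 0.07, edgeR adjusted p 0.0287), with 63.5, 59.5 and 62.1 CPM beside 53.5, 46.2 and 46.2 CPM. With the strand class in the model these 3 had log2 fold changes of 0.40, 0.41 and 0.39 and did not pass (edgeR adjusted p 0.171, 0.233 and 0.236). TNFRSF10D passed in 13 of 15 alternative settings, missing also without control 2 (edgeR adjusted p 0.0503), while PERP and STEAP3 passed in 9 of 15 each, and in 2 of the 6 that leave out a library, those without control 1 or control 3. For PERP control 1 was the lowest library, so the order of the controls seen for CDKN1A was not shared by all p53 targets. The other 3 that passed, outside the rule for named genes, were FBXO22, TNFAIP8 and IKBIP.

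Of the 21 tested regulators of p53 and RB, 1 was higher and 1 lower, beside 2.66% and 2.17% of all genes. TP63 had too few reads to be tested. ATR, the kinase of replication stress, rose by 0.35 (SE 0.08, edgeR adjusted p 0.0393), from 43.2, 46.7 and 52.2 CPM in the controls to 61.5, 63.7 and 56.3 CPM. HIPK2, a kinase that phosphorylates p53 to favour apoptosis, fell by 0.31 on the log2 scale (SE 0.06, edgeR adjusted p 0.0188), from 179.5, 185 and 199 CPM to 154, 147 and 153 CPM. With the strand class in the model neither passed (edgeR adjusted p 0.287 for both, at 0.37 and -0.29). Each passed in 9 of 15 alternative settings, and neither did without co-culture library 1, 2 or 3 or without control 2 (edgeR adjusted p from 0.0538 to 0.192 for ATR and from 0.0531 to 0.136 for HIPK2).

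The last list holds cell cycle genes that p53 represses through p21 and the DREAM complex. Of its 18 genes, 0 were lower and 1 was higher at an edgeR adjusted p under 0.05, beside 2.17% and 2.66% of all genes. Their median log2 fold change was 0.05. BUB1, a kinase of the spindle checkpoint, was at 271, 259 and 262 CPM in co-culture and 194, 227 and 229 CPM in the controls. It rose by 0.29 (SE 0.07, edgeR adjusted p 0.0478), and with the strand class in the model it was at 0.33 with an edgeR adjusted p of 0.287. BUB1 passed in 9 of 15 alternative settings, and missed without co-culture library 1, 2 or 3 or without control 2 (edgeR adjusted p from 0.100 to 0.173). Control 1, high for CDKN1A, was the lowest library for BUB1 and for other genes of the list. It was not the lowest for CDC20, PLK1, AURKA, AURKB, BIRC5, CENPF or MYBL2. The share of all tested genes with control 1 lowest was not counted, so this pattern has no background beside it. A link between these levels and CDKN1A was not tested. At an unadjusted p under 0.05, 2 of the 18 were lower and 2 higher, against 11.5% and 11.7% of all genes, so these counts are near the background.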

How the data were processed

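The authors deposited raw read counts per gene for 6 samples in STAR's layout, with 4 summary lines and 3 count columns. The submitters' processing notes name STAR 2.53a, FastQC and hg18; the annotation is not given in the sources used here. Per the labels' protocols, a stranded Illumina mRNA kit followed Tripure extraction. Reverse-strand counts were used. Genes were filtered with filterByExpr (minimum count 10), leaving 14582 of 23686, scaled by TMM and tested with edgeR 4.0.16 (R 4.3.3), group as the only term, robust quasi-likelihood F test, Benjamini-Hochberg adjustment over all tested genes and a threshold of 0.05. SEs are the absolute log2 fold change over the square root of F. Reads of near-identical genes are undercounted, since multimapping reads (6.48% to 8.42%) are not assigned. A single read was worth 0.0276 to 0.0524 CPM. Chi-square per degree of freedom within groups was 4.56 to 17.7, so no library was a repeat. Nothing says that replicates were separate cultures, so p-values measure the spread between these samples. The members and lists were chosen with earlier results of these data known. Named genes were all 31 members and up to 3 genes past the threshold per other list, and 1 further gene of the rule is not reported here; 4 genes were found under older symbols through RefSeq synonyms. On simulated data, 88.3% of 196 genes changed 2-fold were called, with 16 false calls among 14496 genes. The members' fitted changes were all smaller than 2-fold, and recovery of such changes was not simulated. Same-numbered samples did not deviate together. There were 15 alternatives, using DESeq2 1.42.0 and limma 3.58.1.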

Additional observations from a re-analysis of the deposited data

How the results depend on the processing

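With 3 libraries a group, counts of calls depended on single libraries. Of 465 member values under 15 alternatives, 447 kept their direction. The alternatives share most or all of their libraries, so these values are not independent of each other. Leaving out a library gave 0 to 14 members higher and 0 to 1 lower, 48 to 1558 genes higher and 15 to 1511 lower over all genes, 0 to 18 further targets higher and 0 to 1 lower, 0 to 1 regulators higher and 0 to 4 lower, and 0 to 1 DREAM-repressed genes higher and 0 to 3 lower. The highest counts of all genes came without control 1. The members' median log2 fold change ran from 0.05 to 0.18. The cause of these changes was not tested. Scaling by total counts, which moved the median of all genes to -0.04, gave 0 members higher and 1 lower, 572 genes lower, 2 regulators lower and 1 DREAM-repressed gene lower. DESeq2 gave 1 further target, 2 regulators and 1 DREAM-repressed gene lower. Unstranded counts gave 0 members higher. The strand class as a batch term gave 25 genes higher and 4 lower, with 0 members, 0 further targets, 0 regulators in either direction and 0 DREAM-repressed genes higher. The replicate numbers did not pair the samples (correlations -0.04, -0.09 and -0.09). With a replicate block there were 110 genes higher and 54 lower, 0 members higher, 1 further target higher, 0 regulators higher or lower and 0 DREAM-repressed genes higher. TNFRSF10D still passed with the block (edgeR adjusted p 0.0338), while MDM2 (0.0874), PERP (0.0707), STEAP3 (0.0704), ATR (0.110), HIPK2 (0.0689) and BUB1 (0.117) did not.

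The 8 members that changed sign had log2 fold changes between -0.07 and 0.06 over all 6 libraries. Total counts put RPS27L at -0.024 and SPATA18 at -0.010, and the strand class put FBXW7 at 0.0043, PHLDA3 at -0.0065 and TRIAP1 at 0.018. Leaving out 1 library at a time gave ranges of -0.13 to 0.039 for AEN, -0.018 to 0.0053 for FBXW7, -0.087 to 0.28 for GADD45A, -0.058 to 0.23 for PHLDA3, -0.043 to 0.042 for PPM1D, -0.079 to 0.057 for RPS27L, -0.17 to 0.42 for SPATA18 and -0.11 to 0.0026 for TRIAP1.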
